A study of Homo sapiens with 3 samples.

Results

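The 530 peaks described here are the peaks of an eCLIP list that lie in long noncoding RNA (lncRNA) genes and in no protein-coding or small noncoding RNA gene. They were chosen by position, with no use of a peak's height: the centre of each had to fall in the span of at least 1 gene classed as lncRNA or antisense RNA in the NCBI RefSeq table of GRCh38.p14. They made up 530 of the 20907 listed peaks on chromosomes 1 to 22 and X (2.54%, Wilson interval 2.33 to 2.76%). Coding genes held 19239 of these peaks (92.0%), pseudogenes alone held 601 (2.87%) and positions in no gene held 507 (2.43%). A further 1138 peaks had their centre in both a lncRNA gene and a coding gene (5.44%) and are not members.

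All 3 libraries came from LS174T, a line of human colon adenocarcinoma cells, and all cells carried the same agent, an HA-tagged mouse Pxr (HA-mPxr) delivered by transfection 24 h earlier. In eCLIP, ultraviolet light (here 254 nm, 400 mJ/cm2) links proteins to the RNA they touch, and the RNA that comes down with a protein is sequenced. The labels give 1 input library and 2 immunoprecipitate (IP) replicates. Antibodies against PXR, HA and IgG are named, without saying which of them was used on which library. The transfected receptor is a tagged mouse protein in human cells, and there was no library of cells without it among the samples. The results rest on 1 deposited list of peaks named for the IP. With no values per library at hand, nothing below carries a replicate error, and IP and input were not compared. Of 10 colon epithelial markers 9 held a peak, KRT20 being the exception, against 0 of 5 hepatocyte, 0 of 5 blood, 1 of 5 fibroblast and endothelial (COL1A2) and 2 of 5 neuronal markers (SYT1 and TUBB3). The share of all coding genes that held a peak is not given here, so these counts have no base rate beside them.

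Long noncoding RNAs are transcripts that are not translated into long proteins. Many stay in the nucleus, where some build nuclear bodies or act on chromatin, and others serve mainly as carriers of small nucleolar RNAs (snoRNAs) or microRNAs that are cut out of them. Numerous lncRNA genes begin next to a coding gene and run away from it on the other strand, a layout known as divergent transcription. PXR is a nuclear receptor that binds DNA and senses drugs and bile acids in gut and liver.

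The sequences below are of microRNAs whose hairpin genes member peaks overlapped, and of windows at RefSeq start sites that member peaks touched. The first set is shown because 6 member peaks overlapped microRNA genes, several of them well known in epithelium. Each mature microRNA is from RefSeq, 5′ to 3′, with its seed (bases 2 to 8) in capitals.

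hsa-miR-200b-3p: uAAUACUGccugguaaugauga
hsa-miR-200c-3p: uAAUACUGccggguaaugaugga
hsa-miR-429: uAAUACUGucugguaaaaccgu
hsa-miR-141-3p: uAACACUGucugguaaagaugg
hsa-miR-192-5p: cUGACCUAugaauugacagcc
hsa-miR-194-5p: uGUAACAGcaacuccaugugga
hsa-miR-4449: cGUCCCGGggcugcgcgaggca

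The microRNAs miR-200b-3p, miR-200c-3p and miR-429 share the seed AAUACUG, and miR-141-3p has AACACUG. This family is known for holding cells in an epithelial state. The peaks at MIR200B and MIR429 lay in MIR200BHG, the latter over part of the hairpin and not over the mature miR-429, and a peak over both MIR200C and MIR141 lay in MIR200CHG. MIR192 and MIR194-2, known as gut and liver microRNAs, lay under 1 peak of MIR194-2HG, and MIR4449 lay under the peak of DANCR. MIR612 lay under a peak of NEAT1.

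The second set shows how peaks lay at start sites. Each is a 300-base window from RefSeq (GRCh38.p14), from 250 bases before a listed start site, on the gene's strand, with the bases under the member peak in capitals. The windows are LOC105378198 (chr5:140711026-140711325, plus strand), NORAD (chr20:36050911-36051210, minus strand), MIR23AHG (chr19:13842869-13843168, minus strand), SNHG16 (chr17:76557514-76557813, plus strand) and SCIRT (chr6:44003601-44003900, minus strand).

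LOC105378198: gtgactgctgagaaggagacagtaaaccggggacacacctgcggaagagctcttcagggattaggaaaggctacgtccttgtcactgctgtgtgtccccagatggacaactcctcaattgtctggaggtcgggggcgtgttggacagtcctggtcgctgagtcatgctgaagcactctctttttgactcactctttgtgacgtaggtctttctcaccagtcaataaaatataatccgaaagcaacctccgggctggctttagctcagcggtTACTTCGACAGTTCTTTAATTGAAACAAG
NORAD: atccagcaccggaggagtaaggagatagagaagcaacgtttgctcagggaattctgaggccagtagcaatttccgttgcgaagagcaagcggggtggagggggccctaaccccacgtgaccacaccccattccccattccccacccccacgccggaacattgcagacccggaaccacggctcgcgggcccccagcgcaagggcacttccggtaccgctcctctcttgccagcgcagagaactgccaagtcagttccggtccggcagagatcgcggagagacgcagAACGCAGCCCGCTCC
MIR23AHG: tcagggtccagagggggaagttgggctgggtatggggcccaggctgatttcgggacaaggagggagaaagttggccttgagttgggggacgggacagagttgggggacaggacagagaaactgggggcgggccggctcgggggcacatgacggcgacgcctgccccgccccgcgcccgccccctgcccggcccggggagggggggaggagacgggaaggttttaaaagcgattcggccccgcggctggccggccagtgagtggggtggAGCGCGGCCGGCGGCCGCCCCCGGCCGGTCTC
SNHG16: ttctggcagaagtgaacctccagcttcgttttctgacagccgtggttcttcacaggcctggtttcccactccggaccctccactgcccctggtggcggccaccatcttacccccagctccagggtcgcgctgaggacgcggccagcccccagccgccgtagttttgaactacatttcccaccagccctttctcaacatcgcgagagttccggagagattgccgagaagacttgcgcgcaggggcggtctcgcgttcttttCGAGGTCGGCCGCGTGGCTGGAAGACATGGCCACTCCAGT
SCIRT: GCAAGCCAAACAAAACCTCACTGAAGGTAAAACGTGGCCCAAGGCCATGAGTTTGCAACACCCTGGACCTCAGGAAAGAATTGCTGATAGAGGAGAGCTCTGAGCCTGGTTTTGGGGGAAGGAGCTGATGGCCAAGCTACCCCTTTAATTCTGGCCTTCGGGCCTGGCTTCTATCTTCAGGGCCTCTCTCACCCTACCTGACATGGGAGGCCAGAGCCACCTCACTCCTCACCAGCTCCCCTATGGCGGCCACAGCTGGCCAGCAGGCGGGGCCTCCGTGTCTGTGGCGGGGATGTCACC

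In LOC105378198, NORAD, MIR23AHG and SNHG16 the peak was on the gene's strand and entered the window only after the start of the gene. It covered 29, 15, 32 and 40 of the last 50 bases of the window. The 29 bases in LOC105378198 lie in the vault RNA gene VTRNA1-1, which begins at the same base as LOC105378198. The SCIRT start site lies inside the gene, 71.0 kb from its outer start, and there the peak ran over the whole window on the strand opposite to the gene. Windows were at hand for 11384 of the 17923 lncRNA genes (63.5%). In all, 28 member peaks touched 29 such windows of 28 genes. The peak was on the gene's strand in 22 of the windows, and 21 windows were at the outer start of their gene. The median GC content of the 29 windows was 63.7%, against 50% in 12836 windows of lncRNA genes and 58.7% in all 34991 windows. The receptor half-site AGGTCA, searched on both strands, was in 0 of the 29 windows and in 13.8% of all windows, and AGTTCA was in 2 (6.90%) and in 10.5%. The m6A form GGACT was in 11 windows (37.9%) and in 44.1% of all windows on both strands. The poly(A) signal AATAAA was in 4 (13.8%) and in 17.3%, and a run of 8 T in 3 (10.3%) and in 5.57%. In windows of lncRNA genes the both-strand shares were 17.1% for AGGTCA, 13.6% for AGTTCA, 42.1% for GGACT, 24.9% for AATAAA and 6.96% for the T run. On the gene's strand alone GGACT was in 7 windows (24.1%) and in 25.3% of all windows. AATAAA was then in 2 (6.90%) and in 9.83%, and the T run in 2 (6.90%) and in 2.94%. Most of each window lies before the start site, so these counts do not describe the RNA under a peak. Each motif was counted by itself, whether or not it overlapped another.

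The peaks were shallow in the middle and very deep at a few genes. Depth is given as the reads under a peak's summit, recovered as a whole number from the deposited fold and −log10 p. Its median was 14 reads, with quartiles of 9 and 31, against 21 over all peaks, 22 in coding genes, 14 in pseudogenes alone and 12 in no gene. Under 10 reads lay 152 members (28.7%), where all peaks gave 10.2%, pseudogenes alone 28.6% and no gene 36.5%. Over 200 reads lay 24 members (4.53%, Wilson interval 3.06 to 6.65%), where all peaks gave 1.08%, pseudogenes alone 0.666% and no gene 3.35%. The share of shallow members was thus like that of pseudogenes alone and below that of no gene. Of the 24 members over 200 reads, 13 lay in MALAT1, NEAT1 or GAS5. Intervals of counts cover counting error only, and not the sharing of a gene by several peaks. Summit reads of all members summed to 44874, of which the 10 deepest peaks held 22514 (50.2%). The 8 peaks of MALAT1 alone held 14609 (32.6%) and the peak of DANCR held 5090 (11.3%).

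**Figure D1:**
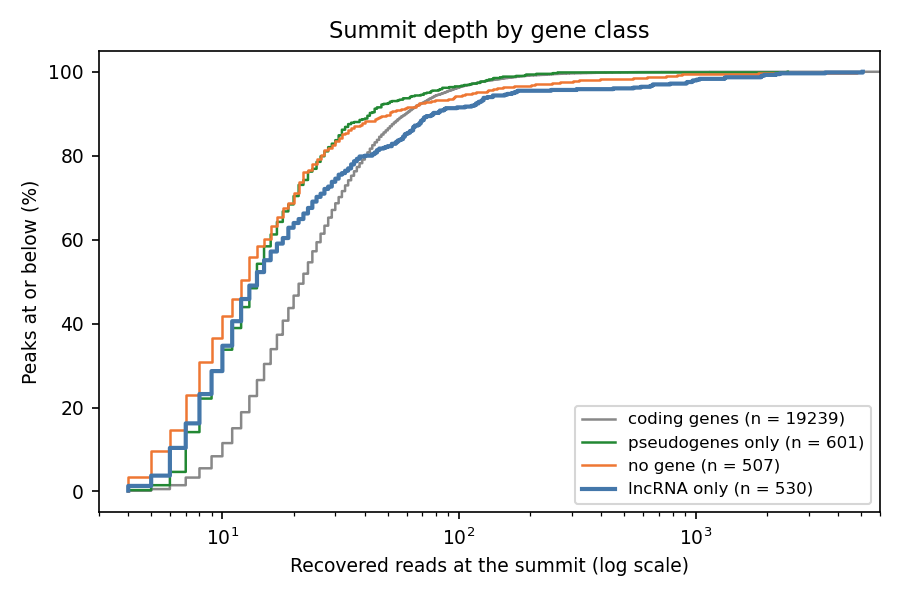
Cumulative share of peaks (%, vertical axis) by recovered reads at the summit (log scale, horizontal axis), with 1 line per gene class and no error shown. The lncRNA-only line starts with those of pseudogenes and no gene, with a median of 14 reads, and ends below the others, with 4.53% of its peaks over 200 reads.

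The authors' fold, a ratio of the summit to a background, had a median of 5.66 in members, with quartiles of 4.57 and 7.88. It was 5.98 over all peaks, 5.92 in coding genes, 7.85 in pseudogenes alone and 6.999 in no gene. The recovered background was the mean over 10 kb around the summit, or a common level where that was higher, which was the case in 80 members (15.1%) and 2.98% of all peaks, 17.6% in pseudogenes alone and 29.0% in no gene. A deep summit that holds nearly all the reads of its 10 kb therefore gets a fold near 50, and a summit within a long covered transcript gets a low fold. With fewer reads such an isolated summit gets a lower fold, as in LINC02462, whose summit held all 160 reads at a fold of 38.3. The fold thus depends on depth as well as on isolation. The median member summit held 21.2% of the reads in its 10 kb, against 17.4% over all peaks. A fold of 20 or more was found in 24 members (4.53%), against 1.51% of all peaks, 1.01% in coding genes, 7.32% in pseudogenes alone and 9.07% in no gene. Peak width had a median of 219 bases, against 263 over all peaks and 268 in coding genes. The narrowest width in the list is 200 bases, and 196 members were at most 202 bases wide (37.0%), against 19.2% of all peaks, 23.1% in pseudogenes alone and 57.4% in no gene. No other peak lay within 10 kb of 258 members (48.7%), against 40.9% of all peaks, 59.9% in pseudogenes alone and 68.4% in no gene. In the shares with a fold of 20 or more, with a narrow width and in isolation, members lay between all peaks and no gene. The median fold of members lay below both. No test was made of these differences.

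**Figure D2:**
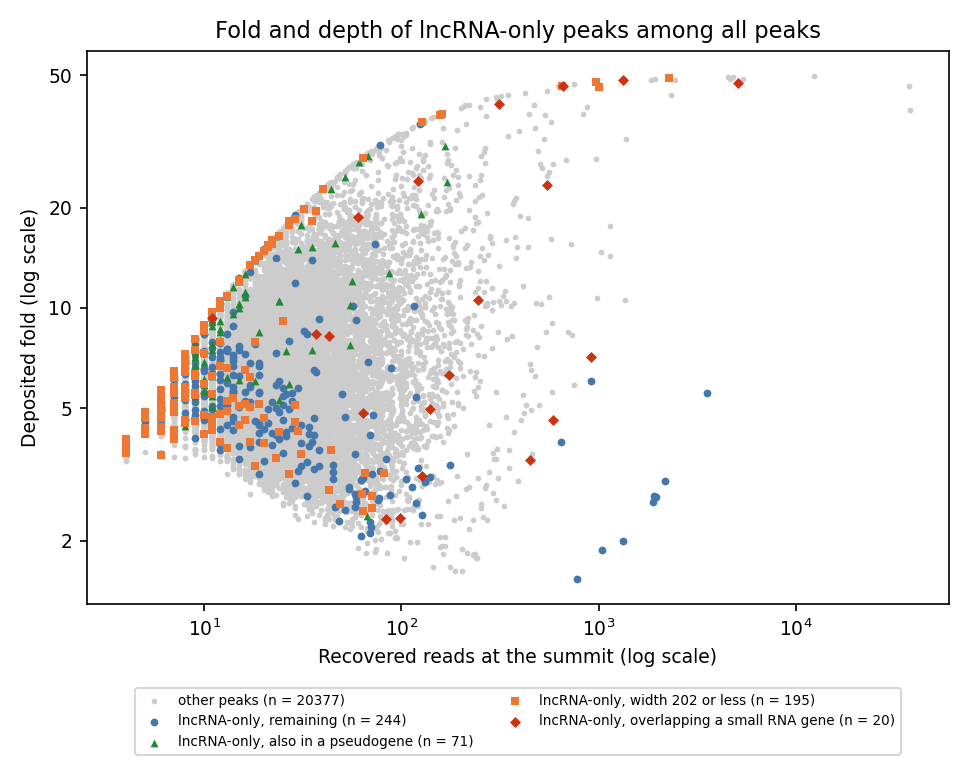
Deposited fold (log scale, vertical axis) against recovered reads at the summit (log scale, horizontal axis), with 1 point per peak. Grey points are the 20377 other peaks, and coloured points are members, of which 20 overlap a small RNA gene, 195 others are at most 202 bases wide, 71 others lie also in a pseudogene and 244 remain. Members at the upper edge, where nearly all reads of the 10 kb lie under the summit, are mostly narrow or overlap small RNA genes, and the deep points of low fold at the right are peaks of MALAT1 and NEAT1.

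Nearly all members of highest fold were narrow, overlapped a small RNA gene or lay also in a pseudogene. Of the 24 members with a fold of 20 or more, 22 met at least 1 of these conditions (11 narrow, 6 at a small RNA gene, 7 in a pseudogene), and the remaining members were LOC101926974 and CLCA4-AS1, at widths of 203 and 205 bases. Among all 316 peaks of that fold 178 met at least 1 of them (56.3%), and among the 506 members of lower fold 264 did (52.2%). Narrow peaks were 45.8% of the 24 (Wilson interval 27.9 to 64.9%) and 36.6% of the 506. The highest fold was 48.9, in LOC107985958 on chromosome 2 (166609536 to 166609735, minus strand), whose 200-base peak held 2270 of the 2271 reads in 10 kb. LOC107984322 on chromosome 11 (32143611 to 32143810, minus strand) followed at 48.2 with all 1325 reads of its 10 kb. That peak lay opposite to the strand of the gene, in the pseudogene THEM7P, and overlapped SNORA88 by 69 bases. LOC105373324 on chromosome 2 (973 reads, fold 47.6), LOC729732 (966 reads, fold 47.6), ZNF496-DT (655 reads, fold 46.4) and TRIM52-AS1 (1009 reads, fold 46.2) had 200-base peaks as well. These 6 narrow peaks of over 200 reads held 7198 of the 44874 member reads (16.0%), and the list held 20 such peaks in all. How many independent molecules their reads stand for was not tested. LINC02462 (160 reads, fold 38.3), LOC101928622 (156 reads, fold 38.1) and LINC03000 (127 reads, fold 36.2) each had every read of the 10 kb under a summit of at most 202 bases, the last on the strand opposite to its gene.

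Among the 24 lncRNAs listed as nuclear or regulatory, 22 were in the gene table as lncRNA, and 8 of them held a member peak (36.4%), against 2.19% of all lncRNA genes (392 of 17923). They were MALAT1, NEAT1, NORAD, PVT1, LINC-PINT, FTX, JPX and FIRRE. This list and those below were not matched on length or expression, and were chosen with earlier results of these data known.

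MALAT1, an abundant RNA of nuclear speckles, held 8 peaks on chromosome 11, all on the plus strand, which is its own. Its summits held 780, 1904, 1951, 1888, 2183, 1336, 3528 and 1039 reads from the start of the gene towards its end. The deepest (65505143 to 65505813; Poisson interval 3413 to 3646 reads) had a fold of only 5.55, since its 10 kb held 31752 reads. All 8 also lie in the span of TALAM1, a gene antisense to MALAT1 by its name, whose strand was not in the promoter table. NEAT1, the scaffold of paraspeckles, held 9 plus-strand peaks, and the deepest were the pair nearest its upstream end, with 920 reads (862 to 981) and 643 reads (594 to 695). Its other 7 peaks held 118 to 177 reads at folds of 2.38 to 3.38. The NEAT1 peak at its start was the widest member, at 1752 bases.

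NORAD, known for binding Pumilio proteins and guarding genome stability, held a peak of 116 reads (95.9 to 139) at a fold of 10.1 near its start and another of 38 reads. FTX and JPX are X-linked regulators of X inactivation. FTX held 8 peaks of 13 to 52 reads, 7 of them on its own strand, and JPX held 1 of 16 reads. FIRRE, which shapes nuclear organisation, held 2 peaks of 9 and 12 reads. PVT1, a neighbour of MYC, held 8 peaks of 11 to 59 reads, 7 on the plus strand. The single minus-strand peak of PVT1 was 202 bases wide and held 11 reads. Listed genes with no peak in the list included HOTAIR, H19, MEG3 and OIP5-AS1, and a missing peak is not read as a lack of RNA or of contact.

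Of 34 snoRNA hosts 17 held a member peak (50%). By symbol, 14 of 29 SNHG genes did so (48.3%, Wilson interval 31.4 to 65.6%). DANCR, a host of snoRNA and of MIR4449, held the deepest member, 5090 reads (4951 to 5232) at a fold of 47.5 on chromosome 4 (52712620 to 52712916, plus strand). That summit held 95.9% of the 5305 reads of its 10 kb and lay inside the 66 bases of MIR4449, all of which the peak covered. GAS5, a stress-responsive host, held 3 peaks of 448, 914 and 587 reads at folds of 3.49 to 7.12, all on its own strand, and 3 more peaks in its span are not members. SNHG1 held peaks of 65, 245 and 546 reads, the deepest at a fold of 23.4 over SNORD29. SNHG29 held 175 and 139 reads, SNHG8 held 121 reads at a fold of 24.1, and ZFAS1 held 88 and 68 reads. SNHG16, of the same class, held 4 peaks of 19 to 36 reads over 7585 bases. SNHG25 (60 reads), SNHG19 (43), SNHG12 (38) and SNHG10 (35 and 14) held fewer reads than ZFAS1.

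Some members touched a small RNA gene although their centre lay outside it. An overlap of at least 1 base was found in 20 members (3.77%, Wilson interval 2.46 to 5.76%), where all peaks gave 0.617%, pseudogenes alone 0.499% and no gene 1.58%. By type 11 of them overlapped snoRNA genes, 6 microRNA genes and 3 vault RNA genes. They were deep, with a median of 157 reads against 13 in the other 510 members. The summit itself lay inside the small RNA gene in 2 of the 20, at MIR4449 and at SNORD80 in GAS5. Peaks are at least 200 bases wide, longer than each of these small RNAs, so a summit outside does not place its reads outside. At SNORD29 and SNORD31 in SNHG1 the peak covered the whole snoRNA, and its summit lay 26 and 28 bases from it. At SNORD79 in GAS5 the summit of 914 reads lay 85 bases outside. SNORD74 and SNORD80 overlapped the GAS5 peaks of 587 and 448 reads.

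The 3 vault RNA genes lay in LOC105378198 on chromosome 5. Vault RNAs are short transcripts of RNA polymerase III found in vault particles and free in the cytoplasm. VTRNA1-2 was overlapped by a peak of 660 reads (611 to 712) at a fold of 46.5, with the summit holding every read of the surrounding 10 kb. VTRNA1-1 was overlapped by a peak of 314 reads (280 to 351) at a fold of 41.1, and VTRNA1-3 by a peak of 11 reads. The summits lay 86, 38 and 89 bases beyond the downstream ends of VTRNA1-2, VTRNA1-1 and VTRNA1-3. Each of these peaks began inside its vault RNA gene. All 3 peaks were on the plus strand, that of LOC105378198. Reads of the host and of the vault RNA cannot be told apart in the list.

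Among listed microRNA hosts, 12 of 76 held a member peak (15.8%). By symbol, 15 of 87 did so (17.2%). MIR200BHG held 6 plus-strand peaks in 7462 bases, its own strand, with 87, 113, 98, 83, 106 and 69 reads at folds of 2.27 to 3.06. Their Poisson intervals overlap in every pair but that of 113 and 69 reads. The peak of 98 reads covered all 95 bases of MIR200B, and that of 83 reads covered 14 of the 83 bases of MIR429. MIR200CHG held 1 peak of 37 reads, 1052 bases wide in a gene of 1203 bases, over all of MIR200C and MIR141. The pattern of the list missed MIR194-2HG, MIR4435-2HG and MIR9-1HG. MIR194-2HG, which was chosen after its values were seen, held peaks of 64 and 45 reads, the first over all of MIR192 and MIR194-2. MIR23AHG held 3 peaks of 54, 69 and 72 reads on its own strand. MIR34AHG, host of a p53-induced microRNA, held 36, 24 and 20 reads, and MIRLET7A1HG held 33 reads. MIR2052HG, a gene of unknown strand, held 1 minus-strand peak of 86 reads at a fold of 12.8. Its width of 1206 bases is the greatest among members also in a pseudogene, so its reads are not assigned to the host. At each of MIR200B, MIR200C, MIR141, MIR192 and MIR194-2 the summit lay outside the hairpin.

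Peaks were spread over the length of several long lncRNAs. Of the 392 genes with a member peak 311 held 1, and 14 held at least 4. LINC00673, named in epithelial cancers, held the most, 19 in 189483 bases of chromosome 17, all on the minus strand, which is its own. Its summits held 31 to 118 reads at folds of 2.07 to 5.40 and lay from 0.331 to 188.4 kb from its start. The deepest was the first, with 118 reads (97.7 to 141), and those over 100 kb from the start held 45, 34, 38 and 31 reads. LINC-PINT, a p53-responsive RNA, showed the other arrangement: 6 of its 7 peaks lay 185.8 to 225.9 kb from the start and held 43 to 59 reads, and the peak at 2.005 kb held 19. LOC105374020 held 7 peaks of 17 to 37 reads, and DANT2, on chromosome X, held 4 of 19 to 28 reads, all on the gene's strand. STAG3L5P-PVRIG2P-PILRB, a readthrough gene, held 5 member peaks of 46 to 83 reads among 8 peaks in its span. Its member of 67 reads lay also in a pseudogene.

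**Figure D3:**
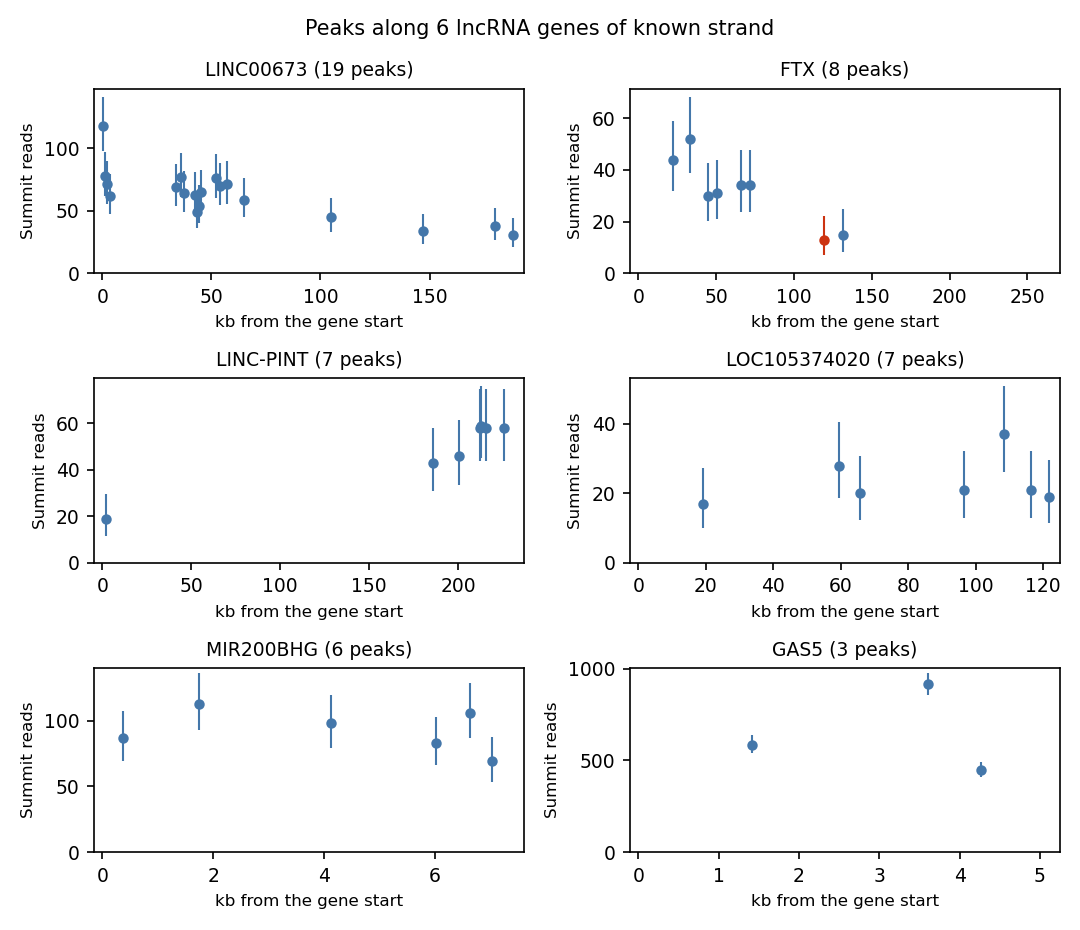
Recovered reads at the summit (vertical axes, from 0) by distance from the gene start in kb (horizontal axes, over the whole gene) for member peaks of 6 lncRNA genes of known strand. Bars are exact 95% Poisson intervals, blue points are peaks on the gene's strand and the red point is the FTX peak on the other strand. LINC00673 was deepest at its start, with 118 reads, LINC-PINT far from its start, and MIR200BHG held 69 to 113 reads throughout.

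SCIRT and LINC03040 overlap on opposite strands of chromosome 6 and shared 4 peaks of 48 to 64 reads. All 4 were on the plus strand, that of LINC03040, and lay 2.351 to 4.431 kb from its start. The count for SCIRT therefore holds no peak on its own strand. Likewise the peak of 23 reads shared by DLEU2 and DLEU1 was on the strand of DLEU2, 0.469 kb from its start.

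Of 37 lncRNAs named in colorectal and other epithelial cancers 5 held a member peak (13.5%): PVT1, DLEU2, DLEU1, PCCA-DT (12 reads) and CYTOR (11 reads). CCAT1, UCA1, CRNDE and LINC00511 held none. Of 8 p53 and DNA damage lncRNAs 4 did (50%): NORAD, LINC-PINT, MIR34AHG and PURPL, the last with 23 and 22 reads. By symbol, the uncharacterised LOC genes held a member peak in 142 of 12046 (1.18%), LINC genes in 64 of 2301 (2.78%), antisense genes (-AS) in 71 of 2057 (3.45%) and divergent genes (-DT) in 38 of 590 (6.44%). Genes with a peak were longer, with a median of 25825 bases against 9125 for all lncRNA genes.

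Members lay opposite to their gene in a larger share than peaks of coding genes did. Gene strand was known for every lncRNA gene under 379 members, of which 295 lay on the gene's strand and 84 on the opposite strand (22.2%, Wilson interval 18.3 to 26.6%). Of the others, 13 lay in lncRNA genes of both strands and 138 in a gene of unknown strand. Where the centre lay in exactly 1 gene of any class, 45 of 309 lncRNA peaks were opposite (14.6%, 11.1 to 18.9%), against 224 of 14012 coding-gene peaks (1.60%, 1.40 to 1.82%). The intervals do not overlap, and no test was made. The share opposite was 28.1% over 10 kb from a coding gene and 13.5% within 10 kb, and 31.1% in narrow members against 17.2% in wider ones. In the 67 members that lay also in a pseudogene it was 56.7% (44.8 to 67.9%), against 14.7% in the other 312. Opposite-strand members had a median fold of 6.999 and 11 reads, against 5.49 and 15 reads on the gene's strand. A peak on the opposite strand is not RNA of the lncRNA gene it was counted for.

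**Figure D4:**
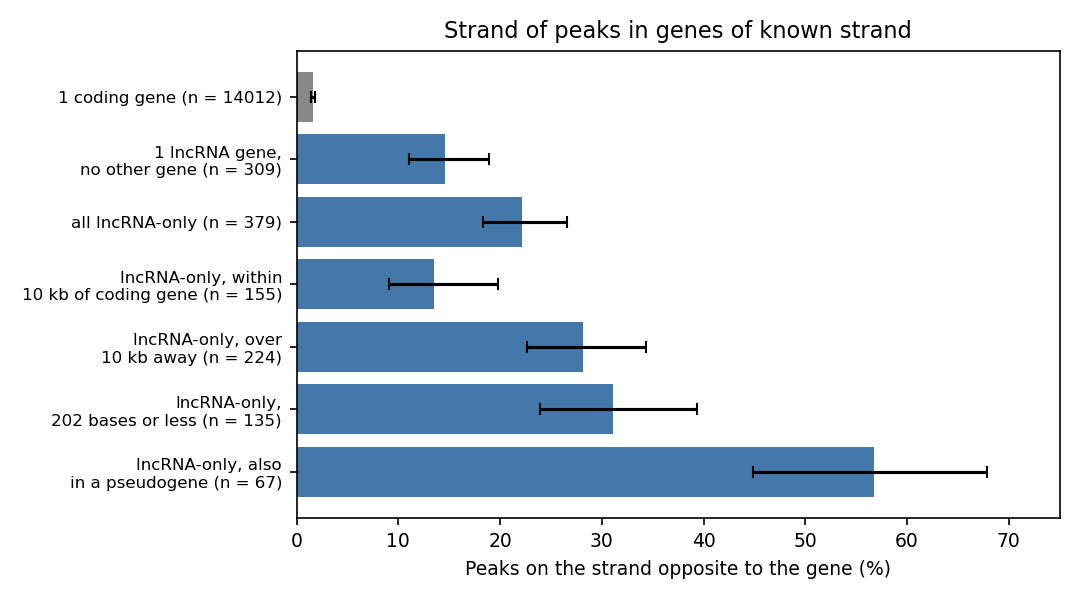
Share of peaks on the strand opposite to their gene (%, horizontal axis, from 0) for sets of peaks with known gene strand. Bars end in Wilson 95% intervals, the grey bar is coding genes and blue bars are lncRNA sets, which share peaks. The share was 1.60% in coding genes, 14.6% in lncRNA genes with no other gene and 56.7% for members also in a pseudogene.

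Pseudogenes lay under 96 members (18.1%), which had a median fold of 7.48. Pseudogenes of ribosomal proteins, by their RPL, RPS and RPLP symbols, lay under 18 of them, and these peaks had a median fold of 8.40. The deepest were at RPS2P46 in LOC105371574 (167 reads, fold 30.5), RPLP0P6 in LINC02613 (125 reads, fold 19.1) and RPS21P4 in TAPT1-AS1 (68 reads, fold 28.5). At GAPDHP1 in LOC105373177, on chromosome X, peaks held 171 reads (146 to 199) at a fold of 23.8 and 55 reads. GAPDHP70 in LOC101929174 held 61 reads at a fold of 27.4. All 3 peaks at GAPDH pseudogenes were opposite to the lncRNA gene. These examples were chosen after their values were seen. Such pseudogenes are near copies of abundant mRNAs, so where their reads come from is uncertain.

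On the gene's strand the peaks leaned towards gene starts. Among 264 peaks with exactly 1 gene of any class, a lncRNA gene on their own strand, 79 lay within 500 bases after its start (29.9%, Wilson interval 24.7 to 35.7%). The same share was 19.9% of 13788 peaks in exactly 1 coding gene (19.2 to 20.6%). Within 500 bases before the gene end lay 15 lncRNA peaks (5.68%) and 9.33% of the coding ones. The median place was 25.0% of the way along the lncRNA gene and 53.7% along the coding gene. Gene lengths differ between these classes, and the difference was not tested. How many of the 79 are among the divergent members described below was not counted, so these patterns may share peaks. On the opposite strand 4 of 83 members lay within 500 bases after the start (4.82%).

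Members near a coding gene lay mostly upstream of it on the other strand. The nearest coding gene was within 1 kb for 95 members (17.9%, against 23.7% of peaks in no gene), within 10 kb for 189 (35.7%) and over 100 kb away for 150 (28.3%), with a median of 28231 bases. At the edge of the choice of members, 10 overlapped a coding gene with some bases outside their centre, and the closest centre lay 4 bases from one. Of the 78 members within 1 kb of a coding gene of known strand, 68 lay upstream of it on the other strand (87.2%, Wilson interval 78.0 to 92.9%), the divergent layout. A further 7 lay upstream on the same strand, and 0 of 78 lay downstream on the same strand, with an upper Wilson bound of 4.69%. Among peaks in no gene the divergent share was 50 of 91 (54.9%, 44.7 to 64.8%), with 17 downstream on the same strand (18.7%). Among peaks in pseudogenes alone it was 6 of 12. Members were chosen by lying in lncRNA genes, so this layout may follow from where those genes are annotated. Its share over all lncRNA genes was not counted.

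**Figure D5:**
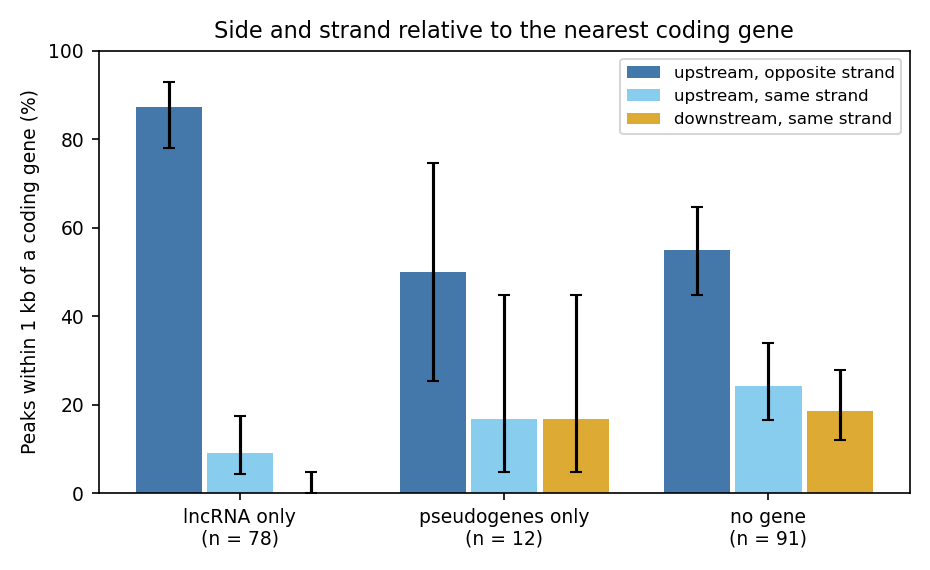
Share of peaks within 1 kb of a coding gene of known strand (%, vertical axis, from 0) by side and strand, for lncRNA-only peaks, peaks in pseudogenes alone and peaks in no gene, with Wilson 95% intervals. The side downstream on the opposite strand is not drawn. Divergent peaks were 87.2% of the lncRNA-only set and 54.9% of those in no gene.

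The 68 divergent members were shallow, with a median of 9 reads, a median fold of 5.49 and a median width of 222 bases. Of these, 60 lay on the strand of their lncRNA gene and 1 on the opposite strand. By symbol, 29 were in -AS genes and 18 in -DT genes. The deepest was the GAS5 peak of 587 reads, 458 bases from ZBTB37. SNHG19 (43 reads) lay 612 bases from TRAF7, and SNHG10 (35 reads, fold 13.95) lay 675 bases from GLRX5. FGD5-AS1, with 25 reads, lay 329 bases from NR2C2, which codes for a nuclear receptor. FOXP4-AS1 beside FOXP4 and GABPB1-AS1 beside GABPB1 held 19 reads each, NUP50-DT held 14, PCCA-DT held 12 and PRMT5-DT held 11. Examples outside the lists were chosen after their values were seen. At 9 reads the Poisson interval is 4.12 to 17.1, so the order of the shallow divergent peaks is not resolved.

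Over the chromosomes, members made up from 0.377% of peaks on chromosome 21 (1 of 265) to 4.87% on chromosome 13 (19 of 390). The share was 4.47% on chromosome 7 (47 of 1052), 3.98% on chromosome X (22 of 553) and 0.949% on chromosome 19 (15 of 1581). The Wilson intervals for chromosomes 7 (3.38 to 5.89%) and 19 (0.576 to 1.56%) do not overlap. Both chromosomes lie near the ends of the range. Chromosome 7 has 915 lncRNA genes in the gene table and chromosome 19 has 479. Some members share a gene, which these intervals do not cover.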

How the data were processed

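The members and the gene lists were chosen with earlier results of these data known. Per the submitters' processing notes, the tools were cutadapt, BWA and MACS2 and the build was hg38, without versions or settings. How replicates and input entered the list is not stated. The authors deposited 1 peak list with a fold per peak (a ratio), a −log10 p-value, a −log10 q-value, a score, which was not analysed, and a summit position. Depth per library was not analysed here.

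Positions were read with Python 3.11.15, pandas 2.3.3, numpy 2.4.6 and scipy 1.17.1, and shown 1-based. Gene classes came from 58415 RefSeq genes, without 679 rows placed on scaffolds, and gene strand from the RefSeq promoter table. Summit reads k and background b were solved from the deposited fold, (k + 1)/(b + 1), and the Poisson −log10 p. In 20904 of 20907 peaks and 528 of 530 members a whole k met the deposited value, with a tolerance of 0.0001 and 0.00001 of the value. The exceptions among members are in MALAT1. The solver was tested on simulated data. Shares have Wilson and reads exact Poisson intervals at 95%, which cover counting error only. Peaks are not replicates, and no test was run.

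Named were the 12 members of highest fold, the 12 with most reads, the 12 genes with most member peaks (14 with ties) and up to 6 genes per list by reads.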

Additional observations from a re-analysis of the deposited data

How the results depend on the processing

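No paired analysis was possible because the list holds no values of single libraries. Of 60 values recomputed under alternatives, 43 were counted as unmoved and 17 as moved. Shares and medians were judged by the interval of the main value. Gene counts have no interval and were judged by a fixed ratio to the main count. When peaks below the median −log10 q were dropped, members were 1.97% of peaks in 159 genes, with a median fold of 9.12, 30 reads and 249 bases. With a fold of 5 or more, the median fold was 6.999. Without peaks of at most 202 bases they were 1.98% in 233 genes, with 18 reads and 271 bases. Without peaks also in pseudogenes they were 2.08% with a median fold of 5.44. Over 1000 bases from coding and small RNA genes they were 1.91%. On the strand of the lncRNA gene they were 1.52% in 223 genes, with a median fold of 5.45 and 16 reads. Each of these alternatives tests fewer peaks by construction. A cut on fold must raise the median fold, and leaving out narrow peaks must raise the median width. Counting misc_RNA as small RNA left the same 530 members, and keeping scaffold rows gave 531, so their unmoved values carry little weight. The alternatives that kept scaffold rows, counted misc_RNA as small RNA or left out members at small RNA genes were chosen after seeing the data. Depth limits the 152 members under 10 reads most, since a single summit of 9 reads has an interval of 4.12 to 17.1.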
